A study of Mus musculus with 21 samples.

Results

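The proteasome is the protease of the ubiquitin system, and its genes carry the prefix Psm. In this mouse cerebral cortex series the set was every gene whose single-symbol probe set matched the proteasome naming pattern (Psma to Psmg followed by a number), with the probe set of highest mean standing for each gene. That gave 48 of the 12393 genes measured. Grouped by symbol, they were 18 genes of the 20S core (Psma and Psmb), 20 of the 19S cap (Psmc and Psmd), 4 activators or regulators (Psme and Psmf) and 4 assembly chaperones (Psmg). The cap group made this way also holds assembly factors such as Psmd10, so it is not made of cap subunits alone. The remaining 2, Psmc3ip and Psme3ip1, share the prefix by name only, since their proteins are partners named after subunits, so 46 of the 48 encode proteasome proteins. Psme2 had no probe set of its own, because its probe set is also assigned to Psme2b, and it was not analysed here.

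The 20S core is a barrel of stacked rings, in which the alpha subunits (Psma) form the gated ends and the beta subunits (Psmb) the inner chamber with the proteolytic sites. The 19S cap binds ubiquitinated proteins, removes the ubiquitin chain and unfolds the substrate with a ring of ATPases (Psmc) held by non-ATPase subunits (Psmd). In neurons, proteasomes clear misfolded and aggregation-prone proteins, TDP-43 among them, and transcription of the subunit genes is known to rise through the factor NRF1 (Nfe2l1) when proteasome capacity falls short.

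The arrays (Affymetrix MOE430A version 2) held total RNA of cerebral cortex from 21 mice of a mixed C57BL/6J x C3HeJ background, all 2 weeks off a doxycycline diet. The tTA/TDP-DeltaNLS group, called dNLS bigenic here, had 5 mice of line NLS4 carrying both the tTA transactivator and a TDP-43 transgene whose nuclear localisation signal is altered. The tTA/TDP-WT group, called WT bigenic, had 4 mice of line WT12 carrying tTA and the wild-type TDP-43 transgene. The Monogenic DeltaNLS group, called dNLS monogenic, had 4 mice of line NLS4 with the TDP-43 transgene and no tTA. The Non-transgenic group had 8 mice with neither transgene, 6 from line NLS4 and 2 from line WT12. By label there were 4 males and 1 female in the dNLS bigenic group and 1 male and 3 females in the WT bigenic group. The dNLS monogenic group had 3 males and 1 female, and the nontransgenic group 4 males and 4 females. In the dNLS bigenic group array 5 was the only female, and in the WT bigenic group array 1 was the only male. In this tetracycline-off design tTA drives the TDP-43 transgene once doxycycline is withdrawn. The labels do not name the promoter of tTA, which in the published model is the Camk2a promoter of forebrain excitatory neurons. Each TDP-43 form is represented by 1 line and no group carries tTA alone, so the effects of transgene form, line and tTA itself cannot be told apart. In whole cortex, fewer cells of a type and less RNA per cell cannot be told apart either.

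Values are deposited log2 levels between 2.04, the lowest value of the table, and 15.1, and levels were compared between groups only within a probe set. Array medians lay between 5.76 and 6.05. Neuronal markers were present in every group, for example Snap25 at 14.04 ± 0.08 (SD, n = 8) in nontransgenic cortex. RNA 3' bias, read as the beta-actin 3' minus 5' probe set difference, was 3.18 ± 2.31 (SD, n = 8) in nontransgenic arrays. It was smaller in the other groups: 2.00 ± 0.76 (n = 4) in dNLS monogenic arrays, 1.75 ± 0.35 (n = 5) in dNLS bigenic arrays, and 1.39 ± 0.03 (n = 4) with WT bigenic RNA. Nontransgenic arrays 6 and 4 had the largest differences, the highest reaching 8.20. On 1 nontransgenic array the Xist level did not match the labelled sex.

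The first question was how proteasome transcripts differed between cortex with cytoplasmic TDP-43 and nontransgenic cortex. In dNLS bigenic cortex 14 of the 48 genes (29.2%) passed an adjusted p of 0.05, from limma with Benjamini-Hochberg adjustment over all 12393 genes, beside 22.3% of all genes. Of the genes above the lowest value on at least 1 array, 28.9% passed, so the members' share was close to the background and is no sign that proteasome genes as a group stood apart. The 10 genes that rose were Psmb2, Psmb3, Psmb6, Psmc1, Psmc3, Psmd1, Psmd3, Psmd4, Psmd12 and Psmg3, beside 10.8% of all genes rising. The 4 that fell were Psma6, Psmb4, Psmb10 and Psme4, beside 11.5% of all genes falling. Among genes above the lowest value on at least 1 array the shares were 14% rising and 14.9% falling. The median change over the members was 0.10 on the log2 scale, beside 0 over all genes, with single genes from -0.42 (Psmb10) to 1.36 (Psmd7, not past the threshold).

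By role, the cap genes that passed all rose, 6 of 20, while the core was divided with 3 of 18 higher and 3 lower. Among the activators 0 rose and 1 of 4 fell, and among the chaperones 1 of 4 rose. With the beta-actin difference as a covariate 24 genes passed (17 higher, 7 lower), and without nontransgenic arrays 4 and 6 it was 22 (16 higher, 6 lower). All 14 genes were among them in both settings. The background rose as well, to 26.9% and 26.6% of all genes. With the covariate the cap group was divided too, since Psmc5 and Psmd10 passed downward. With only the nontransgenic arrays of line NLS4 as controls, all 14 genes passed again. Psma4, Psma7, Psmb1, Psmb5, Psmd7, Psmd8 and Psme3 then passed upward as well. The share of all genes in that fit is not given here. The split also depended on the probe sets: with the mean of all probe sets of a gene 17 passed (15 higher, 2 lower), 12 of the 14 among them, beside 21.4% of all genes.

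**Figure D1:**
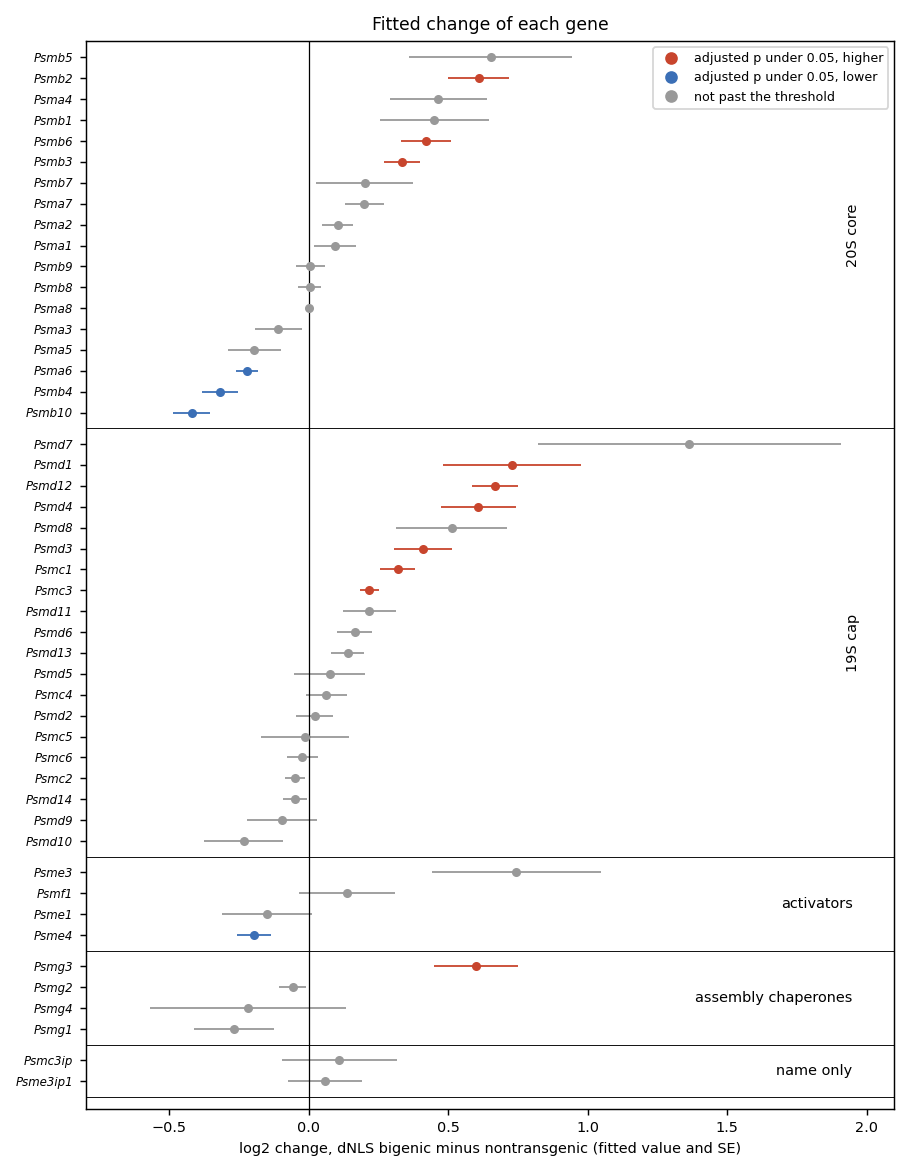
Fitted log2 change (point) and standard error (bar) of each of the 48 genes in dNLS bigenic (n = 5) against nontransgenic (n = 8) cortex, grouped by role and sorted within a role. Red points passed the threshold upward (10 genes) and blue points downward (4 genes), and the long bars of Psmd7, Psmg4, Psme3 and Psmb5 belong to genes with a wide spread among nontransgenic arrays.

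The promoters of 4 of these genes are printed because the genes moved in opposite directions or carry the motifs searched, a choice made after the values were seen. Psmd12 and Psmb10 are a raised and a lowered gene in every dNLS bigenic comparison, and Psmb6 and Psmb3 are raised core genes. Sequences are the 250 bases before the start site from RefSeq on build GRCm38.p6, written 5′ to 3′ on the gene's strand. Capitals mark TGACNNNGC, the antioxidant response element core bound by NRF1 and NRF2, or CCAAT, the NF-Y motif, each searched on both strands.
Psmd12 (chr11:107479278-107479527, plus strand): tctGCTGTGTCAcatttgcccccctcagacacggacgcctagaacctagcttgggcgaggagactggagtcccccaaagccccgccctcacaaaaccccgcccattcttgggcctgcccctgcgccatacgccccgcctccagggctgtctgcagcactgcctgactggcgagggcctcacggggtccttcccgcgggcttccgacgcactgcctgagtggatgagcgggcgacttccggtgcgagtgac
Psmb6 (chr11:70525107-70525356, plus strand): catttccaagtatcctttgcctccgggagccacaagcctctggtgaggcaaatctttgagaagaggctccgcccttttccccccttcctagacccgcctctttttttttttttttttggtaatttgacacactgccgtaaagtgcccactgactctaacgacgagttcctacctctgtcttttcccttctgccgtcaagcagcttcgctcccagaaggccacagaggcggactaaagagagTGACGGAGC
Psmb3 (chr11:97703184-97703433, plus strand): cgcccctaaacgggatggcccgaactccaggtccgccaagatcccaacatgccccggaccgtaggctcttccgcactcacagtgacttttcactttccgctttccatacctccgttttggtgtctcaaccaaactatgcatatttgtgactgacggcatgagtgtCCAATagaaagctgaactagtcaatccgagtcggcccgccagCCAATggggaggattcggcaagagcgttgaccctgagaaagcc
Psmb10 (chr8:105938393-105938642, minus strand): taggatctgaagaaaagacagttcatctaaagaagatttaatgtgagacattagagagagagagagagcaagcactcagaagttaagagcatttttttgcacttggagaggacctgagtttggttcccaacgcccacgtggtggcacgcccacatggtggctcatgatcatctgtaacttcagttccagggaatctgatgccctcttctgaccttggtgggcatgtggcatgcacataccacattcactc

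The Psmd12 match lies on the opposite strand, 247 to 239 bases before the start, and the Psmb6 match ends at the base before the start. Psmb3 holds CCAAT 85 to 81 and 43 to 39 bases before its start, and in Psmb10 neither motif occurs in this window. Of the 46 proteasome genes, 38 had an entry in the promoter table. TGACNNNGC occurred in 5 of these 38 (13.2%; Psmb5, Psmb6, Psmc6, Psmd9 and Psmd12) beside 11.5% of the table's 27025 genes, and CCAAT in 13 (34.2%) beside 37.5%. Among genes with an entry, TGACNNNGC occurred in 2 of the 7 that rose in dNLS bigenic cortex, 0 of the 4 that fell and 3 of the 27 that did not pass. These are matches of letters and describe no binding.

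Among the beta subunits, Psmb2 rose most among those that passed. It is a non-catalytic neighbour in the beta ring (Entrez Gene 26445). Psmb2 read 11.07, 11.21, 11.15, 10.97 and 11.58 in dNLS bigenic arrays, and 10.38, 10.59 and 11.01 at the lowest, median and highest of the 8 nontransgenic arrays. The groups overlapped only through nontransgenic array 4, an array of large 3' bias, which lay above dNLS bigenic array 4. The difference was 0.61 ± 0.11 (SE), or 1.52-fold higher (limma adjusted p = 0.000586).

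Psmb3, another non-catalytic beta subunit, read 13.14, 13.13, 13.09, 13.05 and 13.33 in dNLS bigenic arrays against 12.64, 12.83 and 13.07 at the lowest, median and highest nontransgenic array. Again a single nontransgenic array, number 6, reached into the dNLS bigenic range. Psmb3 was 1.26-fold higher (0.33 ± 0.06 SE, limma adjusted p = 0.00102), and its second probe set rose by 1.19 (adjusted p = 0.00244 over the 20380 single-symbol probe sets).

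Psmb6, which carries the caspase-like site of the constitutive core, read 12.87, 12.73, 12.83, 12.86 and 12.85 in dNLS bigenic arrays and 12.04, 12.49 and 12.64 at the lowest, median and highest nontransgenic array. All 5 dNLS bigenic arrays lay above all 8 nontransgenic arrays. Psmb6 was 1.34-fold higher (0.42 ± 0.09 SE, limma adjusted p = 0.00234), and with the beta-actin covariate the change was 0.29.

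Psmb10, the inducible subunit that replaces Psmb7 in the immunoproteasome, went the other way (Entrez Gene 19171). Psmb10 read 10.37, 10.57, 10.42, 10.38 and 10.32 in dNLS bigenic arrays against 10.61, 10.86 and 11.07 at the lowest, median and highest nontransgenic array. The groups did not overlap. Psmb10 was 1.34-fold lower (-0.42 ± 0.07 SE, limma adjusted p = 0.000153), and left-out arrays moved the change only between -0.46 and -0.37.

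Psmb4, a beta subunit that joins late in ring assembly, read 12.20, 11.997, 12.06, 11.98 and 12.24 in dNLS bigenic arrays and 12.26, 12.39 and 12.64 at the lowest, median and highest nontransgenic array. All dNLS bigenic arrays were below all nontransgenic arrays, although the gap was narrow. Psmb4 was 1.25-fold lower (-0.32 ± 0.06 SE, limma adjusted p = 0.00157), and its second probe set fell by 0.25 (adjusted p = 0.0268). The deposited level of Psmb4 is identical, at 12.29, on 7 arrays, among them all 4 WT bigenic arrays, so its SD of 0 in that group is a property of the deposited summary values.

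Psma6, an alpha-ring subunit (Entrez Gene 26443), read 12.63, 12.61, 12.53, 12.61 and 12.38 in dNLS bigenic arrays against 12.65, 12.74 and 12.84 at the lowest, median and highest nontransgenic array. The ranges did not overlap but nearly touched. Psma6 was 1.17-fold lower (-0.22 ± 0.04 SE, limma adjusted p = 0.000491). Its second probe set changed by 0.07 and did not pass, and with the mean of its 4 probe sets the call was lost (-0.12, adjusted p = 0.0590).

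The other catalytic subunits did not pass against all 8 nontransgenic arrays. Psmb5, the chymotrypsin-like site, was 12.15 ± 0.30 (SD, n = 5) in dNLS bigenic and 11.55 ± 0.67 (n = 8) in nontransgenic cortex, a difference of 0.65 ± 0.29 (SE, limma adjusted p = 0.134). Against the nontransgenic arrays of line NLS4 alone, the difference of Psmb5 was 0.80 and passed (limma adjusted p = 0.0454). Psmb7, the trypsin-like site, differed by 0.20 ± 0.17 (SE, limma adjusted p = 0.53). The inducible subunits Psmb8 and Psmb9, which replace Psmb5 and Psmb6 in immunoproteasomes, were near the floor of the table. Psmb8 was at 2.25 on all dNLS bigenic and dNLS monogenic arrays, and its highest level on any array was 2.62 (WT bigenic 3). Psmb9 was at or near 2.04 everywhere except 2.47 on that same array, and the testis subunit Psma8 was at the lowest value on all 21 arrays, so no difference could be read from these levels.

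Of the cap genes, Psmd12, a lid scaffold subunit, had the smallest adjusted p of the 48 genes (Entrez Gene 66997). Psmd12 read 11.98, 11.93, 11.98, 11.97 and 11.86 in dNLS bigenic arrays, and 10.996, 11.31 and 11.46 at the lowest, median and highest nontransgenic array. The dNLS bigenic arrays were tightly grouped and lay above every array of the other groups. The change was 0.67 ± 0.08 (SE), or 1.59-fold (limma adjusted p = 1.49e-05), and it stayed between 0.61 and 0.70 whichever array was left out.

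Psmd3, another lid scaffold subunit, read 10.96, 11.11, 10.96, 10.97 and 10.97 in dNLS bigenic arrays and 10.33, 10.58 and 11.08 at the lowest, median and highest nontransgenic array. Nontransgenic array 6 alone was as high as the dNLS bigenic arrays. Psmd3 was 1.33-fold higher (0.41 ± 0.10 SE, limma adjusted p = 0.00779).

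Psmd4, a ubiquitin receptor of the cap, read 11.86, 11.89, 11.83, 11.97 and 11.89 in dNLS bigenic arrays against 10.60, 11.33 and 11.74 at the lowest, median and highest nontransgenic array. The groups did not overlap. Psmd4 was 1.52-fold higher (0.61 ± 0.13 SE, limma adjusted p = 0.00296), or 0.41 with the beta-actin covariate, and its second probe set rose by 1.10 (adjusted p = 0.0380).

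Psmd1, the large scaffold of the cap base, read 11.91, 11.87, 11.95, 11.90 and 11.84 in dNLS bigenic arrays and 9.94, 11.45 and 11.77 at the lowest, median and highest nontransgenic array. The lowest nontransgenic values were on arrays 6 and 4, the arrays of large 3' bias, and the groups did not overlap. Psmd1 was 1.66-fold higher (0.73 ± 0.25 SE, limma adjusted p = 0.0428), but its call was lost in 14 of the 21 fits that left out an array (adjusted p up to 0.0982). Without arrays 4 and 6 together the change was 0.43 (adjusted p = 0.000722).

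The ATPase Psmc1 read 12.37, 12.42, 12.41, 12.36 and 12.61 in dNLS bigenic arrays against 11.83, 12.14 and 12.26 at the lowest, median and highest nontransgenic array. Its groups did not overlap, and array 5 stood above the other dNLS bigenic arrays. Psmc1 was 1.25-fold higher (0.32 ± 0.06 SE, limma adjusted p = 0.00124).

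The ATPase Psmc3 read 13.08, 13.04, 13.07, 13.08 and 13.16 in dNLS bigenic arrays and 12.81, 12.87 and 12.99 at the lowest, median and highest nontransgenic array. Here too no arrays overlapped, although the change was small at 1.16-fold (0.22 ± 0.03 SE, limma adjusted p = 0.000199). The other 4 ATPases, Psmc2, Psmc4, Psmc5 and Psmc6, did not pass, with fitted changes from -0.05 to 0.06. The second probe set of Psmc4 did pass, rising by 0.41 (adjusted p = 0.000155).

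Psmd14, the deubiquitinase of the lid, was 12.35 ± 0.09 (SD, n = 5) in dNLS bigenic and 12.41 ± 0.08 (n = 8) in nontransgenic cortex, and its change of -0.05 ± 0.04 (SE) did not pass (limma adjusted p = 0.540).

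**Figure D2:**
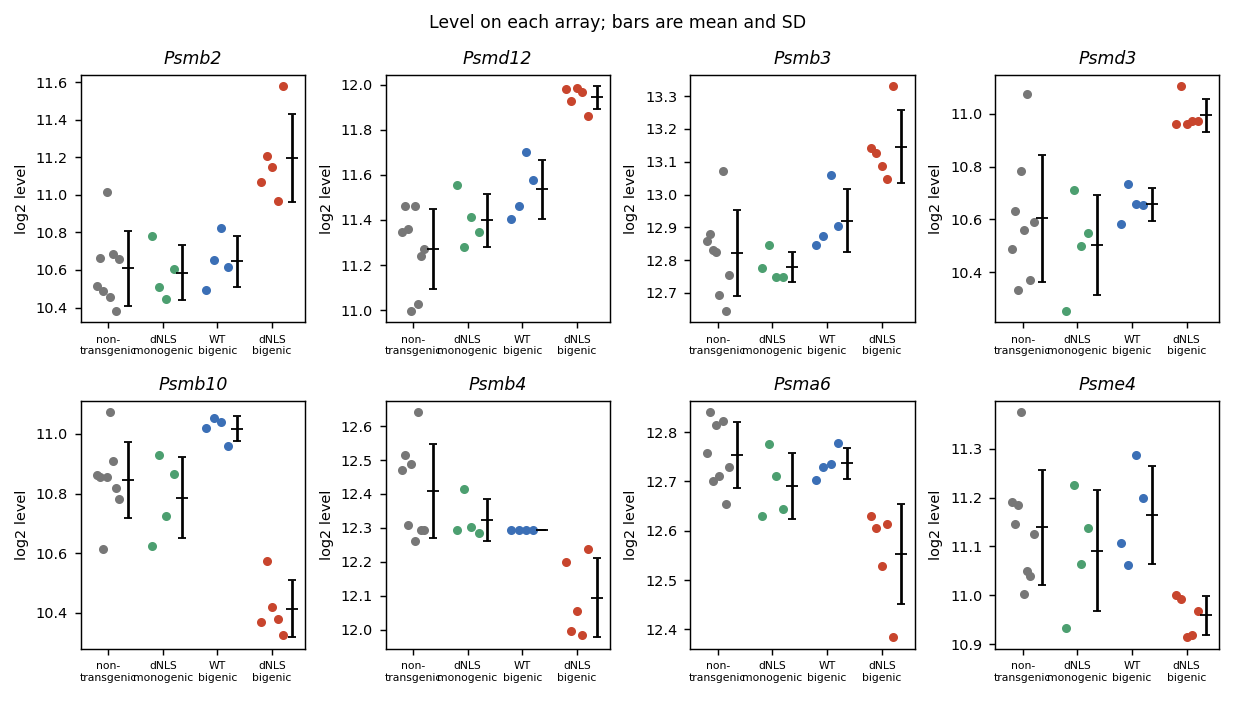
Log2 level of 8 genes on each array (points), by group, with the group mean and SD as bars beside the points; the vertical axes differ between genes and do not start at 0. All 5 dNLS bigenic points of Psmd12 lie at 11.86 or above and all 5 of Psmb10 at 10.57 or below, apart from every other group.

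The activators differed from each other. Psme4, the PA200 cap of the core in nuclei, read 11, 10.99, 10.91, 10.92 and 10.97 in dNLS bigenic arrays against 11.003, 11.14 and 11.38 at the lowest, median and highest nontransgenic array. The dNLS bigenic arrays lay just below the lowest nontransgenic array. Psme4 was 1.15-fold lower (-0.20 ± 0.06 SE, limma adjusted p = 0.0235). The call was lost without dNLS bigenic array 3 (adjusted p = 0.0581) or 4 (0.0552), and with the mean of its 3 probe sets the change was -0.07 (adjusted p = 0.931).

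Psme1, a subunit of the interferon-inducible 11S activator, differed from nontransgenic cortex by -0.15 ± 0.16 (SE, limma adjusted p = 0.672). Psme3, the nuclear 11S activator, differed by 0.74 ± 0.30 (SE, limma adjusted p = 0.0944). Psmf1, the inhibitor PI31, differed by 0.14 ± 0.17 (SE, limma adjusted p = 0.753). None of these 3 passed, although the second probe set of Psmf1 rose by 0.80 (adjusted p = 0.0195). Against the nontransgenic arrays of line NLS4 alone, Psme3 did pass (0.90, limma adjusted p = 0.0294).

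Of the chaperones that pair alpha subunits and guide ring assembly, Psmg3 read 9.86, 9.94, 9.98, 10.04 and 9.81 in dNLS bigenic arrays and 8.68, 9.40 and 9.98 at the lowest, median and highest nontransgenic array. The highest nontransgenic array, number 5, lay inside the dNLS bigenic range and the other 7 below it. Psmg3 was 1.52-fold higher (0.60 ± 0.15 SE, limma adjusted p = 0.00694). Psmg1 differed by -0.27 ± 0.14 and Psmg2 by -0.06 ± 0.05 (SE), with limma adjusted p of 0.222 and 0.495. Psmg4 was near 2.81 on most arrays, close to the floor, and no comparison was drawn from it. The name-only genes Psmc3ip and Psme3ip1 passed in no comparison.

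**Figure D3:**
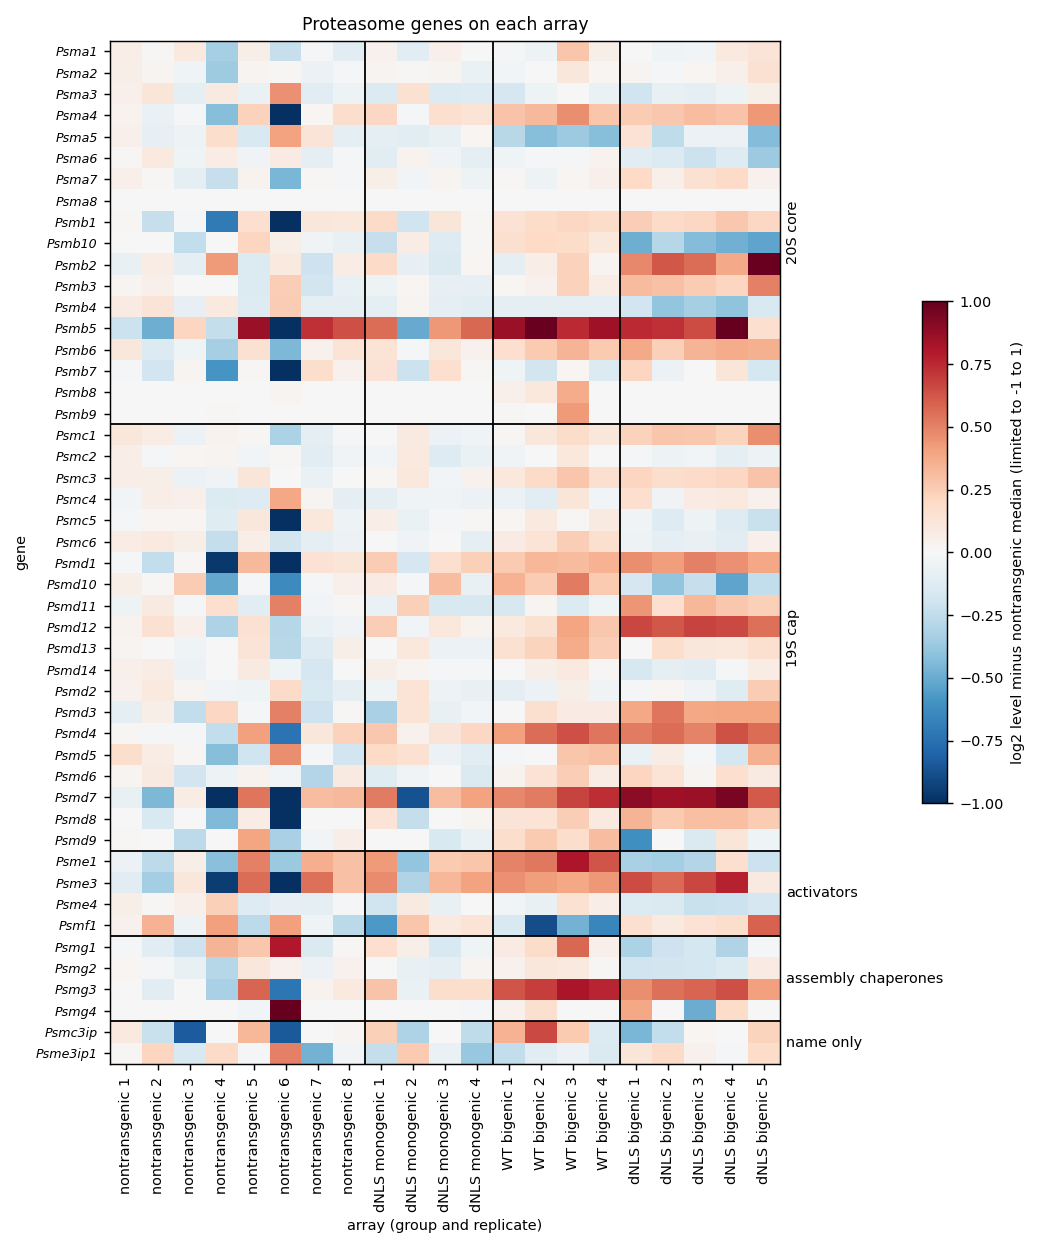
Log2 level of each of the 48 genes on each of the 21 arrays, minus that gene's median over the 8 nontransgenic arrays, with the colour scale limited to -1 to 1; rows are grouped by role and columns by genotype group. Psmd12 and Psmb2 are red and Psmb10 is blue in the 5 dNLS bigenic columns, and nontransgenic columns 6 and 4 are dark blue for Psmd7, Psmd1, Psme3 and Psmb1.

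Several proteasome probe sets were low on the nontransgenic arrays of large 3' bias. Psmd7, a lid subunit paired with Psmd14, had the largest fitted change at 1.36 ± 0.54 (SE) and did not pass (limma adjusted p = 0.0869). Its nontransgenic levels ran from 5.87 on array 6 and 7.94 on array 4 to 9.93, while dNLS bigenic arrays read 10.29, 10.24, 10.25, 10.34 and 10.01. All 5 dNLS bigenic arrays were above all nontransgenic arrays. With the beta-actin covariate the change of Psmd7 was 0.52 (limma adjusted p = 0.000115), and without arrays 4 and 6 it was 0.79 (adjusted p = 0.0106). Against the nontransgenic arrays of line NLS4 alone it was 1.60 (limma adjusted p = 0.0382). The covariate also brought past the threshold Psma4 (0.21), Psma7 (0.10), Psmb1 (0.15), Psmd8 (0.21), Psmd11 (0.34) and Psme3 (0.29) upward and Psmc5 (-0.24), Psmd10 (-0.39) and Psme1 (-0.35) downward. By contrast Psmd12 and Psmb10 were nearly as large with the covariate, at 0.59 and -0.40.

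**Figure D4:**
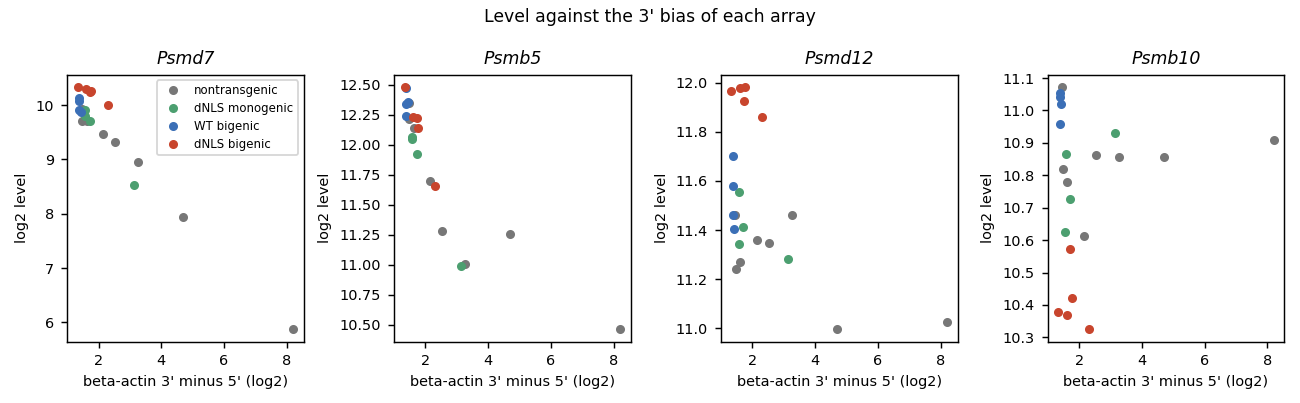
Log2 level of Psmd7, Psmb5, Psmd12 and Psmb10 (vertical axes, scales differ) against the beta-actin 3' minus 5' difference of the same array (horizontal axis), 1 point per array and coloured by group. Psmd7 and Psmb5 are lowest on the nontransgenic array with the largest difference, 8.20, whereas the 5 dNLS bigenic points of Psmd12 and Psmb10 lie apart from nontransgenic points of like difference.

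The comparison with dNLS monogenic cortex asks what changes when the same transgene is driven by tTA, within a single line. Here 9 of the 48 genes (18.8%) passed, beside 14.3% of all genes. Of the genes above the lowest value on at least 1 array 18.6% passed, so the members' share was close to that background. The members split into 6 higher (Psmb2, Psmb3, Psmc1, Psmc3, Psmd3 and Psmd12) and 3 lower (Psma6, Psmb4 and Psmb10). After quantile normalization of the arrays the split was 7 higher and 1 lower, and the share of all genes in that fit is not given here. With the beta-actin covariate, and also without nontransgenic arrays 4 and 6, which are not part of this comparison, 19 genes passed, beside 23.3% of all genes in both settings.

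Psmb2 read 10.78, 10.51, 10.45 and 10.61 in dNLS monogenic arrays, all below the 5 dNLS bigenic arrays, and was 1.53-fold higher with the driver (0.61 ± 0.13 SE, limma adjusted p = 0.00265). Psmd12 read 11.55, 11.28, 11.41 and 11.34 there and was 1.46-fold higher (0.54 ± 0.09 SE, limma adjusted p = 0.000617). Psmb10 read 10.62, 10.93, 10.73 and 10.86 and was 1.29-fold lower (-0.37 ± 0.07 SE, limma adjusted p = 0.00227). None of these 3 genes had overlapping groups in this comparison.

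Psmd3 was 1.41-fold, Psmb3 1.29-fold, Psmc1 1.23-fold and Psmc3 1.13-fold higher than in dNLS monogenic cortex, again with no overlap of arrays. The call of Psmc3 was lost when arrays were centred on their medians (0.15, adjusted p = 0.128). Psma6 (-0.14 ± 0.04 SE, limma adjusted p = 0.0436) and Psmb4 (-0.23 ± 0.07 SE, limma adjusted p = 0.0460) passed narrowly, and their calls were lost in 12 and 13 of the 21 fits that left out an array. Psmb6, Psmd4 and Psmg3 were above all dNLS monogenic arrays on all 5 dNLS bigenic arrays, with changes of 0.27, 0.40 and 0.39 that did not pass (limma adjusted p = 0.0948, 0.105 and 0.165).

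Without the driver, the TDP-43 transgene went with no proteasome call. Between dNLS monogenic and nontransgenic cortex 0 of 48 genes passed in limma and 0 had an unadjusted p under 0.05, beside 0% of all genes called. The members' median change was 0.02. Leaving aside Psmg4, fitted changes ran from -0.15 (Psme3ip1) to 0.62 (Psmd7), and nontransgenic cortex of the 2 lines, compared as NLS4 against WT12, also gave 0 calls (7 at an unadjusted p under 0.05), beside 0.00807% of all genes.

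Wild-type TDP-43 gave few calls. In WT bigenic against nontransgenic cortex 4 of 48 genes passed (8.33%), beside 2.23% of all genes. Among genes above the lowest value on at least 1 array 2.89% passed. The median change over the members was 0.13. Psmg3 was 1.70-fold higher and Psmd13 and Psmc3 were 1.21-fold and 1.12-fold higher, while Psma5 was 1.33-fold lower. With the 2 nontransgenic arrays of line WT12 as the controls, 0 genes passed in limma (11 at an unadjusted p under 0.05), beside 0.00807% of all genes. With each array centred on its median only Psmg3 passed, and after quantile normalization 3 genes did, all higher. The shares of all genes in the centred and quantile fits are not given here. Their counts are therefore not read as changes of proteasome genes in particular. Without nontransgenic arrays 4 and 6 there were 6 calls, all higher, beside 3.42% of all genes. They were Psmg3, Psmd13 and Psmc3 with Psma4 (0.25), Psmb6 (0.20) and Psmd4 (0.38), and Psma5 was lost (-0.32, adjusted p = 0.0523).

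Psmg3 read 10.03, 10.09, 10.21 and 10.16 in WT bigenic arrays, above all 8 nontransgenic arrays, a change of 0.77 ± 0.16 (SE, limma adjusted p = 0.0260). Leaving out any of the 4 WT bigenic arrays lost the call of Psmg3 and every other call of this comparison, with adjusted p up to 0.0909 for Psmg3. Psmd13, a lid subunit, read 10.71, 10.79, 10.93 and 10.81 against 10.28, 10.56 and 10.69 at the lowest, median and highest nontransgenic array. The 4 WT bigenic arrays lay above the nontransgenic range by a narrow margin (0.28 ± 0.06 SE, limma adjusted p = 0.0316).

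Psmc3 read 12.98, 13.06, 13.15 and 13.03 in WT bigenic arrays, overlapping the highest nontransgenic array (0.16 ± 0.04 SE, limma adjusted p = 0.0314). Psma5, an alpha-ring subunit, read 11.99, 11.85, 11.90 and 11.85, below the lowest nontransgenic level of 12.12. Its change was -0.41 ± 0.10 (SE, limma adjusted p = 0.0451), and the call was lost in 16 of 21 fits that left out an array, while its second probe set changed by 0.09 and did not pass.

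The direct comparison of the TDP-43 forms, dNLS bigenic against WT bigenic, sets driven transgenes of different lines against each other. Its groups also differ in sex, with 4 males of 5 mice and 1 male of 4, and sex is a covariate of the fit. This comparison gave 8 of 48 calls (16.7%), beside 10.8% of all genes and 14% of those above the lowest value on at least 1 array. Psmb2, Psmd12 and Psmf1 were higher and Psma6, Psmb10, Psmd10, Psme1 and Psme4 lower. With each array centred on its median the split turned to 5 higher and 3 lower, and 4 of the 8 calls were shared with the uncentred fit. The share of all genes in the centred fit is not given here, so that split is not read as particular to proteasome genes. With the beta-actin covariate 17 genes passed (9 higher, 8 lower), beside 19.7% of all genes, and without nontransgenic arrays 4 and 6 it was 15 (7 higher, 8 lower), beside 18.3%. The 3 dNLS bigenic comparisons share the same 5 arrays, and the 4 genes called in all of them were Psmb2, Psmd12, Psma6 and Psmb10. The share of all genes called in all 3 was not computed, so this count is not read as a trait of proteasome genes.

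Psmb10 read 11.02, 11.05, 11.04 and 10.96 in WT bigenic arrays, the tightest group of this gene, and was 1.5-fold lower with the dNLS form (-0.58 ± 0.08 SE, limma adjusted p = 0.000148). Psmb2 read 10.50, 10.66, 10.82 and 10.61 there and was 1.5-fold higher (0.59 ± 0.14 SE, limma adjusted p = 0.00871). This Psmb2 call was lost without dNLS bigenic array 5, the highest (0.44, adjusted p = 0.0542), or without WT bigenic array 1 (0.53, adjusted p = 0.0623).

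Psmd12 read 11.41, 11.46, 11.70 and 11.58 in WT bigenic arrays and was 1.32-fold higher with the dNLS form (0.40 ± 0.10 SE, limma adjusted p = 0.0161). No array overlapped, but the call was lost without WT bigenic array 1 (0.31, adjusted p = 0.134) and with centred arrays (0.40, adjusted p = 0.0668). Psma6 read 12.70, 12.73, 12.74 and 12.78 and was 1.16-fold lower (-0.22 ± 0.05 SE, limma adjusted p = 0.00627), again lost with the mean of its probe sets (-0.11, adjusted p = 0.224).

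Psmd10, known as gankyrin and a chaperone of base assembly, read 6.82, 6.60, 6.76, 6.46 and 6.75 in dNLS bigenic arrays and 7.34, 7.25, 7.51 and 7.25 in WT bigenic arrays. The ranges were well apart, and nontransgenic arrays from 6.35 to 7.25 spanned the dNLS bigenic range and met the WT bigenic one. Psmd10 was 1.62-fold lower (-0.70 ± 0.17 SE, limma adjusted p = 0.0142), lost by a small margin without WT bigenic array 1 (adjusted p = 0.0509) and with centred arrays (0.0516).

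Psme1 read 10.52, 10.50, 10.54, 11.01 and 10.62 in dNLS bigenic arrays and 11.34, 11.37, 11.65 and 11.47 in WT bigenic arrays. Array 4 stood above the other dNLS bigenic arrays, and still no arrays of the groups overlapped. Psme1 was 1.62-fold lower (-0.69 ± 0.20 SE, limma adjusted p = 0.0325), with the call lost in 7 of 21 fits that left out an array (adjusted p up to 0.129). Psmf1 read 8.71, 8.65, 8.70, 8.73 and 9.15 in dNLS bigenic arrays and 8.40, 7.67, 8.08 and 7.91 in WT bigenic arrays, with no overlap. It was 1.66-fold higher (0.73 ± 0.21 SE, limma adjusted p = 0.0330), and without dNLS bigenic array 5 the change was 0.54 (adjusted p = 0.171). Psme4 passed by the narrowest margin (-0.23 ± 0.07 SE, limma adjusted p = 0.0487) and lost its call in 15 of 21 such fits and with sex as read from Xist (adjusted p = 0.0597).

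Psmb10 and Psme1 belong to the interferon-inducible set, and some glial markers were also lower in this comparison. Of 11 microglial markers measured 0 were higher and 3 lower (Tmem119, Ctss and Tyrobp), with a median change of -0.88, beside 6.24% of all genes higher and 4.53% lower. Their summed log2 level ranged over 13.6 to 14.4 in dNLS bigenic, 14.2 to 15.1 in WT bigenic, 13.8 to 14.3 in nontransgenic and 14.02 to 14.14 in dNLS monogenic arrays, and the marker Itgam was at the lowest value on all arrays. Of 8 astrocyte markers 0 were higher and 1 lower (Aldh1l1), with a median change of -0.24. Their summed log2 level was 15.18 to 15.29 in dNLS bigenic and 15.38 to 15.69 in WT bigenic arrays, with no overlap, and 15.03 to 15.45 in nontransgenic arrays. The part of microglial or astrocyte RNA in the levels of Psmb10 and Psme1 was not tested.

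**Figure D5:**
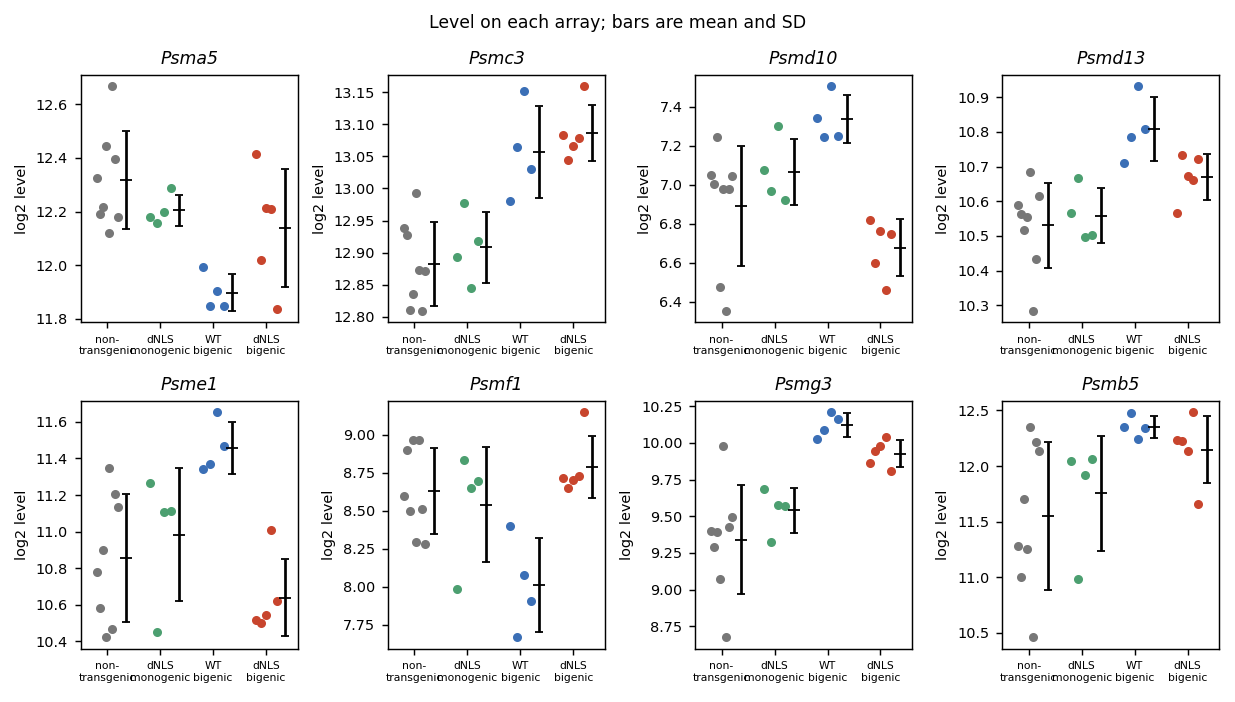
Log2 level of 8 genes on each array (points), by group, with the group mean and SD as bars beside the points; the vertical axes differ between genes and do not start at 0. WT bigenic points of Psmg3 lie at 10.03 or above and those of Psma5 at 11.99 or below, Psmd10 and Psme1 are lower and Psmf1 higher in dNLS bigenic than in WT bigenic arrays, and Psmb5 spans 10.46 to 12.35 among nontransgenic arrays.

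To test whether the effects of the TDP-43 forms differ, each was set against nontransgenic arrays of its own line and the difference of the effects was tested. Of the 48 genes 1 passed (2.08%), Psmb10, beside 3.55% of all genes. Its effect was lower by 0.67 ± 0.12 (SE) with the dNLS form, 1.60-fold (limma adjusted p = 0.00397), and the call held whichever array was left out, with values from -0.72 to -0.63. Psma6 (-0.26, limma adjusted p = 0.0552) and Psmb4 (-0.36, adjusted p = 0.0842) came next, and Psmd12 and Psmb2, at 0.39 and 0.42, had adjusted p of 0.199 and 0.310. With only 2 nontransgenic arrays of line WT12, both from females, this test rests on a small control group. These 2 arrays had beta-actin differences of 1.47 and 1.62, while nontransgenic arrays of line NLS4 reached 8.20. The control groups thus differ in 3' bias. This contrast was not fitted with the beta-actin covariate or without both arrays of largest 3' bias.

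Genes that serve the proteasome included higher and lower members in dNLS bigenic against nontransgenic cortex, to be read beside 10.8% of all genes higher and 11.5% lower. Among 13 measured partners 1 rose and 2 fell. Zfand2a, a stress-induced proteasome-binding protein, rose by 0.74 ± 0.07 (SE, limma adjusted p = 6.69e-07), while Akirin2, an importer of proteasomes into nuclei, and Zfand5 fell by 0.52 and 0.25. Pomp, the maturation factor of the core, differed by 0.09 ± 0.11 (SE, limma adjusted p = 0.744), and Adrm1 was not analysed here. Nfe2l1 itself differed by -0.00 ± 0.06 (SE, limma adjusted p = 1), and of 16 genes of the NRF1 and NRF2 axis 4 rose (Srxn1, Txnrd1, Gclc and Keap1) and 1 fell, Ngly1, the deglycosylase that NRF1 needs for activation, by 0.91. Among 11 shuttle and p97 genes 4 rose, led by Ubxn1 (0.98) and the p97 cofactor Nsfl1c (0.85), and Ubqln2 fell by 0.50. Of 20 ubiquitin and conjugation genes 5 rose (Cdc34 by 0.70) and 5 fell (Ube2d1 by 0.47).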

How the data were processed

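Each array was a separate mouse. The authors deposited 1 table of log2 values for 22690 probe sets on 21 arrays, processed in Partek per the submitters' processing notes; for background correction and normalization the sources used here give no method. The probe-gene table names 20380 probe sets with 1 symbol, 691 with several and 1555 with none; 64 controls were left out. Per gene the probe set of highest mean was kept (12393 genes, 2854 at the lowest value on all arrays). Groups came from the labels. Differences were fitted with limma 3.58.1 in R 4.3.3 (lmFit, contrasts.fit and eBayes with an intensity trend) over 4 groups with labelled sex on all 21 arrays, and p-values were adjusted by Benjamini-Hochberg over all genes at 0.05; line comparisons split the nontransgenic group. The number of arrays limits the precision, and the scripts were tested on simulated data. Every member that passed was named, together with the catalytic, inducible, activator and chaperone genes. Members and lists were chosen with earlier results of these data known. Alternatives covered scaling, probe set choice, a filter on dim genes, sex, variance prior, 3' bias, same-line controls and leaving out each array. Motifs were searched with Python 3.11.15.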

Additional observations from a re-analysis of the deposited data

Results flagged for a closer look

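Within groups of 4 or more arrays, a single array stood apart from the others in 19 of 180 gene and group pairs tested by Dixon's ratio, where chance alone gives about 1 in 20. Nontransgenic array 6, of the largest 3' bias, held 6 of them. It read low for Psmc5 (10.06) and Psmd8 (10.49), and high for Psma3 (12.65), Psmc4 (13.10), Psmd11 (11.69) and Psmg4 (5.41). Nontransgenic array 4 read low for Psma2 (11.81).

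In dNLS monogenic cortex, array 2 held 5 more. Its Psmb5 (10.98) and Psmd7 (8.52) were low, and its Psma3 (12.35), Psmb4 (12.42) and Psmd2 (12.41) high, while array 4 read low for Psma2 (12.10). WT bigenic array 3 was the only array with Psmb9 clearly off the floor (2.47).

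Among dNLS bigenic arrays, number 5 read high for Psmc1 (12.61), Psmf1 (9.15) and Psmg2 (9.82), number 2 for Psmd3 (11.11) and number 4 for Psme1 (11.01). The effect of the TDP-43 forms, each against its own line's controls, differed for Psmb10 by -0.67 in the limma test of the difference.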

How the results depend on the processing

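No called gene changed direction under any alternative, while the median of dNLS bigenic against WT bigenic lay on both sides of 0 (-0.00675 to 0.0460). The beta-actin covariate gave 24 genes for dNLS bigenic against nontransgenic, 17 against WT bigenic and 19 against dNLS monogenic, and 2 for WT bigenic against nontransgenic, whose median became 0.0851. Without the 2 nontransgenic arrays of largest 3' bias the counts were 22, 15 and 19, and the first median was 0.0601. WT bigenic against nontransgenic kept 1 call with centred arrays and 0 with same-line controls, and centring moved the dNLS monogenic against nontransgenic median to 0.0760. Leaving out each array gave 12 to 20 calls (median 0.0380 to 0.123, lowest without dNLS bigenic array 5) for dNLS bigenic against nontransgenic. It gave 3 to 14 against WT bigenic (3 without WT bigenic array 1, 5 without dNLS bigenic array 5, 14 without nontransgenic array 6). Against dNLS monogenic it gave 7 to 14 (median 0.0168 to 0.0821), for WT bigenic against nontransgenic 0 to 5, and for the difference of effects 1 to 3. The shares of all genes called in these fits are not given here. The ranges are therefore not read as changes of the proteasome genes in particular. Signal limits Psma8, Psmb8, Psmb9 and Psmg4, whose probe sets sit at or near the floor. No paired analysis was possible because the labels give no replicate number and the numbers used here only name arrays.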

Other observations

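Autophagy, the other main route of protein clearance, showed 4 of 13 measured genes higher and 1 lower in dNLS bigenic against nontransgenic cortex, beside 10.8% and 11.5% of all genes. Atg7, the activating enzyme of autophagosome conjugation, rose by 1.00 ± 0.18 (SE, limma adjusted p = 0.000543), and Ulk1 and Gabarapl2 rose by 0.53 and 0.42. Becn1 fell by 0.32. Atg7 was also higher than in WT bigenic cortex, by 0.89 ± 0.22 (SE, limma adjusted p = 0.0134). It was the only one of the 13 to pass there, beside 10.8% of all genes passing in either direction.

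Of the 8 antigen processing genes measured, 0 passed in limma in dNLS bigenic against nontransgenic or against WT bigenic cortex, with 2 and 0 at an unadjusted p under 0.05. Of all genes, 22.3% and 10.8% passed in these comparisons. With only 8 genes, 0 calls is not read as a lack of response. The p97 cofactor Nploc4 was higher than nontransgenic cortex by 0.47 and higher than WT bigenic cortex by 0.55 (limma adjusted p = 6.17e-06 and 3.1e-05).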
